A study of Mus musculus with 6 samples.

Results

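The genes encoding voltage-gated sodium channels, voltage-gated calcium channels and transient receptor potential (TRP) channels were compared between tuft-like and non-tuft-like medullary thymic epithelial cells (mTEC). Members were chosen by name from the table of raw read counts: the sodium channel α and β subunits (Scn), the calcium channel α1, α2δ, β and γ subunits (Cacna1, Cacna2d, Cacnb and Cacng), the TRP channels of the Trpa, Trpc, Trpm and Trpv families, and the mucolipins (Mcoln). The rule left out Trpm5, the cation channel of taste transduction and a classical tuft cell marker, and kept protein-coding genes. It returned 64 of the 52636 gene rows. Of these, 63 had enough counts to be tested. The remaining gene, Trpc2, was read in 1 library only, with 2 counts, and shares its exons with another gene.

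Thymi of C57BL/6 mice, 6 weeks old, supplied both populations, sorted as mTEC binding the lectin UEA, with little surface MHC class II and without CD80, Sca1 or CD63. Tuft-like mTEC carried CD117 and CD66a, whereas non-tuft-like mTEC carried neither, and there were 3 bulk RNA-seq libraries of each. Nothing in the labels says whether the libraries came from separate animals or from pools of animals, so the p-values measure the spread between these samples, which may be technical. The libraries held 20097617 to 48369825 counts on genes. The sort label held for RNA: all 12 tuft cell markers, among them Dclk1, Il25 and Pou2f3, were called higher in tuft-like mTEC, and their summed level was 10767 to 17872 CPM (read counts scaled to library size) against 644 to 802 CPM.

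Voltage-gated sodium and calcium channels open when the membrane depolarizes. Their large α subunits form the pore, and the smaller subunits carry the pore to the cell surface and tune its gating. TRP channels are cation channels opened by chemicals, temperature, lipids or mechanical and osmotic stimuli, and mucolipins release calcium from lysosomes. Tuft cells are chemosensory epithelial cells in which taste-like receptor signalling frees calcium from internal stores and opens Trpm5. The values for Trpm5 itself, given for scale, were 120, 118 and 75.7 CPM in the non-tuft-like libraries and 1672, 2217 and 2340 CPM in the tuft-like libraries, a log2 fold change of 4.31 (edgeR FDR 0.000555).

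Among the channel genes, 3 were called higher in tuft-like mTEC and none was called lower. They were Trpa1, Scn2a and Cacna2d2, which encode a TRP channel gated by irritants, the pore of a sodium channel and an accessory subunit of calcium channels. Calls were made at a false discovery rate (FDR) of 0.05 in edgeR's quasi-likelihood test, adjusted over all 32496 genes tested. The 3 calls were 4.76% of the 63 channel genes tested, beside 2.11% over all genes, and the background for higher calls was 1.16% and for lower calls 0.951%. At an unadjusted p under 0.05 there were 7 channel genes with higher and 4 with lower levels in tuft-like mTEC, which was 17.5% of those tested beside 8.97% of all genes (4.38% higher and 4.59% lower). For the 0 lower calls, DESeq2 called 1 gene, Scn3b, and limma voom called 0. Scn4b was called lower with no filter on low counts, and Scn4b and Cacna2d4 were called lower without tuft-like replicate 3.

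The channel genes as a group did not lie to one side. In tuft-like mTEC 29 of the 63 had a higher fitted level and 34 a lower one, and their log2 fold changes ran from -3.42 to 3.36 around a median of -0.07, beside 0.02 over all genes tested. Their summed level was 1489, 1410 and 1170 CPM in non-tuft-like mTEC and 1253, 1257 and 1340 CPM in tuft-like mTEC, so the groups overlapped. The libraries of the groups did not overlap for 26.6% of the channel genes, 8 with all tuft-like libraries higher and 9 with all of them lower, where the background of genes without overlap was 16% (7.18% higher and 8.85% lower). The kinds of channel differed in their split of fitted levels. Calcium channel genes had 8 higher and 18 lower, sodium channel genes 6 and 8, TRP genes 14 and 6, and mucolipins 1 and 2. Over all genes tested 51.0% were higher.

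**Figure D1:**
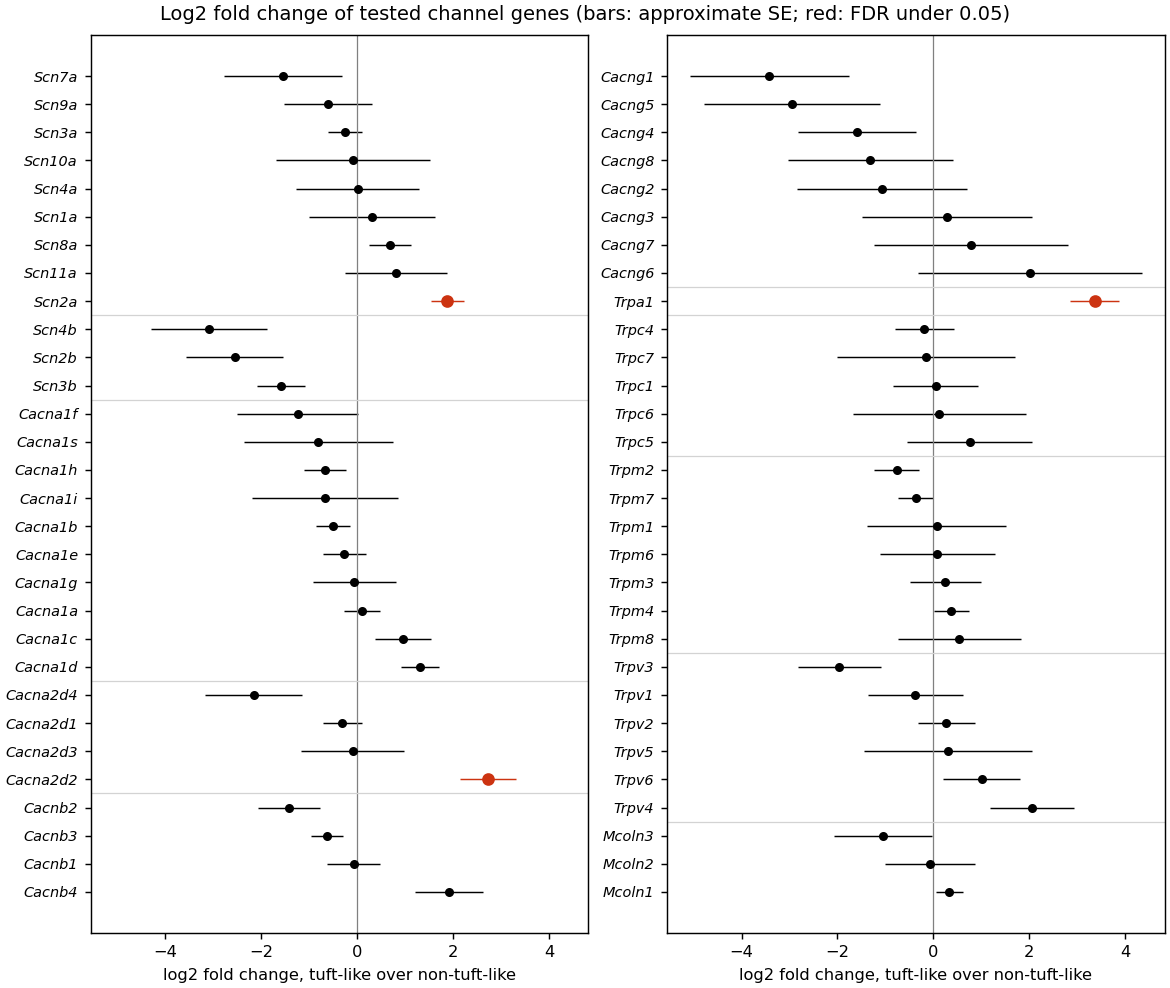
Fitted log2 fold changes of tuft-like over non-tuft-like mTEC for tested channel genes, arranged by family, with bars of 1 standard error. The 3 genes called at an FDR of 0.05, Trpa1 at 3.36, Cacna2d2 at 2.73 and Scn2a at 1.88, lie to the right of zero, and the sodium channel β subunits Scn2b, Scn3b and Scn4b lie to its left.

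Trpa1 (ENSMUSG00000032769), the channel opened by mustard oil and other electrophilic irritants, showed the largest increase. It spans chr1:14872648-14918862 on the minus strand (mm10), and none of its annotated exon bases is shared with another gene. Its level was 1.99, 5.66 and 6.58 CPM in the non-tuft-like libraries and 40.3, 62.6 and 43.5 CPM in the tuft-like libraries. Every tuft-like library stood far above every non-tuft-like one. The means were 4.74 ± 2.43 and 48.8 ± 12.0 CPM (SD, n = 3 each), a log2 fold change of 3.36 (SE 0.51, FDR 0.00682), or 10.3-fold. In reads per length, Trpa1 stood at 11.5 CPM per kb of exon in tuft-like and 1.11 in non-tuft-like mTEC. It was the channel gene whose call held in every alternative fit, including each with 1 library left out, where its log2 fold change lay between 2.99 and 3.63.

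Scn2a (ENSMUSG00000075318), the pore of the sodium channel Nav1.2 of central neurons, spans chr2:65620771-65767447 on the plus strand without shared exon bases. It was read at 17.6, 27.4 and 39.4 CPM in non-tuft-like mTEC and at 94.1, 93.8 and 122 CPM in tuft-like mTEC. The groups did not overlap, and the tuft-like libraries lay close together. The means were 28.1 ± 10.9 and 103 ± 16.3 CPM (SD, n = 3 each), which gave a log2 fold change of 1.88 (SE 0.35, FDR 0.0194), or 3.67-fold. Without non-tuft-like replicate 1, non-tuft-like replicate 2 or tuft-like replicate 2 the FDR was 0.0572, 0.0961 or 0.053, and the call was lost.

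The 250 bases before each RefSeq start of Scn2a (GRCm38.p6, plus strand, chr2:65620519-65620768 and chr2:65668436-65668685) are shown because Scn2a has more than one start and the counts do not tell which was used. The windows were read for ATGCAAAT, the octamer bound by POU factors, TATAAA and GGGCGG on both strands. Capitals mark TATAAA, which was in 1 of the windows.
Scn2a upstream start: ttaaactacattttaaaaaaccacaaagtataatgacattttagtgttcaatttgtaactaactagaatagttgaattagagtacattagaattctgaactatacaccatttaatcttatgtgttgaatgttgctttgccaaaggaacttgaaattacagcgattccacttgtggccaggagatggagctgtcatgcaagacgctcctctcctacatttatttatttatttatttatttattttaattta
Scn2a downstream start: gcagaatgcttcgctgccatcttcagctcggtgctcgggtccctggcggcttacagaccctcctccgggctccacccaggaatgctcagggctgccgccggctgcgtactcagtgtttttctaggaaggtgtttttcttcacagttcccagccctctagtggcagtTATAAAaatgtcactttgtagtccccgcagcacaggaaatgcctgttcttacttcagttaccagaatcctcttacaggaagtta
The upstream window is rich in A and T (GC 29.6%) and the downstream one is mixed (GC 53.2%). Of the 64 channel genes, 51 matched RefSeq promoter windows, 66 in all. TATAAA was in 9.09% of them and in 12.4% of the 32851 windows of all genes, and GGGCGG was in 31.8% and 32.7%. The octamer was in 0 of the 66 windows and in 1.60% of all windows. A match of letters is a description and not a bound site. Trpa1 was not among the matched genes.

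Cacna2d2 (ENSMUSG00000010066) encodes an α2δ subunit, an extracellular partner that brings calcium channels to the surface and binds gabapentinoid drugs. It lies at chr9:107399612-107529343 on the plus strand, and 82 of its 7947 exon bases overlap an antisense gene, Gm17141. Its level was 1.92, 9.49 and 6.10 CPM in the non-tuft-like libraries and 27.5, 42.8 and 46.2 CPM in the tuft-like libraries, without overlap. The means were 5.84 ± 3.79 and 38.8 ± 9.94 CPM (SD, n = 3 each), a log2 fold change of 2.73 (SE 0.59, FDR 0.0446), or 6.64-fold. This call was near the threshold. It was lost without non-tuft-like replicate 1 (FDR 0.0564), non-tuft-like replicate 3 (0.113), tuft-like replicate 2 (0.157) or tuft-like replicate 3 (0.0899).

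**Figure D2:**
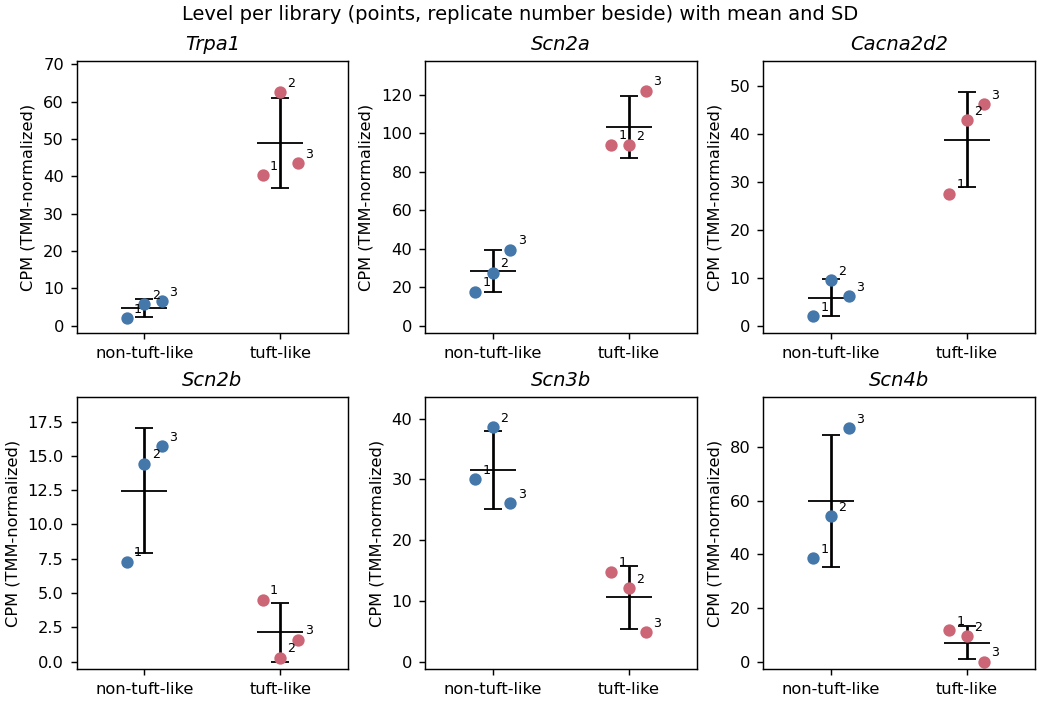
Level in CPM of the 3 called channel genes (upper row) and of the sodium channel β subunits Scn2b, Scn3b and Scn4b, which were not called (lower row), with numbered points for libraries and bars for the mean and SD of each group. Tuft-like libraries lie above all non-tuft-like ones for Trpa1, Scn2a and Cacna2d2, with tuft-like means of 48.8, 103 and 38.8 CPM, and below all of them for the β subunits.

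In bulk libraries, fewer cells of a type and less RNA per cell cannot be told apart, so each level is an average over the sorted cells. Among the 10 sodium channel α subunits Scn2a was the single call, and 6 had higher and 4 lower fitted levels in tuft-like mTEC. Their median was 0.17 on the log2 scale. The most abundant by length was Scn3a, a sodium channel of developing neurons, at 10.8 CPM per kb in non-tuft-like and 9.04 in tuft-like mTEC. Its libraries overlapped, at 199, 132 and 71.5 CPM against 125, 97.7 and 115 CPM (log2 fold change -0.25, FDR 1). Scn2a per length therefore stood below Scn3a in non-tuft-like mTEC, at 2.21 CPM per kb, and near it in tuft-like mTEC, at 8.12 CPM per kb.

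Scn8a, a widespread neuronal sodium channel pore, was at 14.3, 15.5 and 14.0 CPM in non-tuft-like and 19.9, 18.1 and 32.1 CPM in tuft-like mTEC, without overlap, and was not called (log2 fold change 0.68, SE 0.44, FDR 0.949). The α subunits Scn1a, Scn4a, Scn7a, Scn9a, Scn10a and Scn11a had fitted log2 fold changes from -1.54 to 0.81, and overlapped between the groups.

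The β subunits of sodium channels, single-pass membrane proteins that modulate the pore and act in cell adhesion, lay on the other side. All 4 had lower fitted levels in tuft-like mTEC, with a median of -2.06 on the log2 scale, 3 of them did not overlap between the groups (8.85% of all genes did so on the lower side), and none was called by edgeR although 3 had an unadjusted p under 0.05 (4.59% of all genes on the lower side). Their summed level was 77.6, 109 and 130 CPM in non-tuft-like mTEC and 33.6, 22.0 and 6.43 CPM in tuft-like mTEC. DESeq2 called 1 of the 4 and limma voom none.

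Scn4b was the most abundant of them per length in non-tuft-like mTEC, at 12.0 CPM per kb, against 1.42 in tuft-like mTEC. It was read at 38.6, 54.2 and 87.0 CPM in the non-tuft-like libraries and at 11.8, 9.47 and 0 CPM in the tuft-like libraries. The library at 0 was tuft-like replicate 3, and the fitted log2 fold change of -3.08 (SE 1.21, FDR 0.402) was fitted with it included. Without it the difference was called at -2.53 (FDR 0.0183), and with no filter on low counts at -3.13 (FDR 0.0105). Scn3b was at 30.0, 38.6 and 26.1 CPM against 14.8, 12.1 and 4.83 CPM, also without overlap (log2 fold change -1.58, SE 0.50, FDR 0.211), and DESeq2 called it (FDR 0.0438). Scn2b was at 7.29, 14.4 and 15.7 CPM against 4.50, 0.292 and 1.60 CPM (log2 fold change -2.55, SE 1.01, FDR 0.413).

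The summed level of smooth muscle and pericyte markers was also lower in tuft-like mTEC, at 30.3 to 65.0 CPM against 226 to 378 CPM in non-tuft-like mTEC. Of these 5 markers 1 was called lower (Rgs5), and none was at 0 in any library. Keratinocyte markers were lower as well, at 3232 to 5370 CPM against 136, 478 and 1310 CPM, with 4 of 8 called lower and none at 0. Among tuft-like replicates 1, 2 and 3 the keratinocyte order was opposite to that of the β subunits, which summed to 33.6, 22.0 and 6.43 CPM. Smooth muscle and pericyte markers fell in the β subunit order there, at 65.0, 37.9 and 30.3 CPM. In the non-tuft-like libraries keratinocyte markers, at 3232, 5134 and 5370 CPM, had the order of the β subunits, at 77.6, 109 and 130 CPM. Smooth muscle and pericyte markers, at 226, 378 and 327 CPM, did not have that order. The part of either cell type in the β subunit levels was not tested.

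The calcium channel pores, the 10 Cacna1 genes, were not called, with 0 calls in limma voom and 1 in DESeq2. Of them 1 had an unadjusted p under 0.05 (10%, beside 8.97% of all genes). Fitted levels were higher in tuft-like mTEC for 3 and lower for 7 (median log2 fold change -0.38). Cacna1d, the pore of an L-type channel that opens at modest depolarization, was that gene. It was at 19.4, 16.4 and 17.3 CPM in non-tuft-like and 31.4, 34.4 and 66.2 CPM in tuft-like mTEC, without overlap (log2 fold change 1.31, SE 0.39, FDR 0.164). It was called by DESeq2 (FDR 0.0187) and in a fit restricted to genes averaging 10 CPM or more in a group (FDR 0.0251). Of its 12621 exon bases, 589 overlap Chdh.

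Cacna1b, the N-type pore of presynaptic terminals, was at 24.1, 33.6 and 29.0 CPM in non-tuft-like and 23.4, 19.5 and 18.2 CPM in tuft-like mTEC (log2 fold change -0.50, FDR 1), a narrow gap between the groups. Cacna1f, an L-type pore of the retina, was at 10.4, 9.62 and 7.98 CPM against 7.69, 4.18 and 0.0276 CPM (log2 fold change -1.24, FDR 1). The most abundant pore per length was Cacna1h, a T-type channel open near the resting potential, at 6.56 CPM per kb in non-tuft-like and 4.12 in tuft-like mTEC. Its libraries overlapped, at 66.1, 81.8 and 44.3 CPM against 33.3, 20.4 and 66.9 CPM (log2 fold change -0.67, FDR 0.956).

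Among the 4 α2δ subunits Cacna2d2 rose and the others were not called. Cacna2d1, the most abundant, stood at 9.92 CPM per kb in non-tuft-like and 8.01 in tuft-like mTEC, and its libraries overlapped at 135, 158 and 76.4 CPM against 58.6, 80.6 and 159 CPM. Cacna2d4 was at 37.9, 40.9 and 36.2 CPM in non-tuft-like mTEC and 14.1, 11.6 and 0.138 CPM in tuft-like mTEC, without overlap (log2 fold change -2.16, SE 1.02, FDR 0.61). Its low library was again tuft-like replicate 3, and without that library the gene was called at -1.62 (FDR 0.0372). Per length Cacna2d2 and Cacna2d4 stood in opposite order in the groups, at 0.735 and 4.05 CPM per kb in non-tuft-like and 4.89 and 0.908 in tuft-like mTEC.

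The β subunits of calcium channels sit inside the cell and release the pore from retention. Cacnb3 was the most abundant channel gene per length in both populations, at 28.1 CPM per kb in non-tuft-like and 18.3 in tuft-like mTEC. Its libraries overlapped, at 150, 107 and 81.5 CPM against 63.3, 54.5 and 102 CPM (log2 fold change -0.62, FDR 0.779). Cacnb4 was at 1.89, 4.45 and 4.96 CPM in non-tuft-like and 10.1, 18.8 and 13.9 CPM in tuft-like mTEC, without overlap (log2 fold change 1.92, SE 0.70, FDR 0.336), and DESeq2 called it (FDR 0.0322). Of its 8963 exon bases, 1433 overlap A430018G15Rik. Cacnb1 and Cacnb2 overlapped between the groups, with log2 fold changes of -0.07 and -1.42.

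The γ subunit family, 8 genes that include partners of AMPA receptors, had 7 members at or under the 99th percentile of olfactory receptor genes, a yardstick for low levels, in every library on the scale of CPM per kb. None was called, 0 had an unadjusted p under 0.05, and DESeq2 and limma voom called 0. The member with the largest difference was Cacng1, the γ subunit of skeletal muscle, at 11.2, 4.36 and 2.51 CPM in non-tuft-like and 1.36, 0.322 and 0 CPM in tuft-like mTEC. These did not overlap, and the log2 fold change of -3.42 had a standard error of 1.66 (FDR 0.643). It was -2.62 without non-tuft-like replicate 1 and -5.20 without tuft-like replicate 1, and was not called in either fit. In non-tuft-like mTEC Cacng1 stood above that percentile in 2 of the 3 libraries. Muscle markers summed to 376 to 536 CPM in non-tuft-like and 187 to 279 CPM in tuft-like mTEC, with 1 of 10, Actn3, called lower at a log2 fold change of -5.02. The 9 tested were split, 4 with higher and 5 with lower fitted levels and a median of -0.02 on the log2 scale. Up to 3 of them were at 0 in a tuft-like library, and their part in the Cacng1 values was not tested.

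Apart from Trpa1, 0 of the TRP genes were called, and DESeq2 and limma voom called 0 of them as well. With Trpa1 counted, 3 of the 20 tested had an unadjusted p under 0.05 (15%, beside 8.97% of all genes), the others being Trpv4 and Trpv3. Among the 6 Trpv genes Trpv4, a channel of osmotic and mechanical sensing, was the 1 without overlap (7.18% of all genes on the higher side). It was at 11.04, 6.24 and 0.604 CPM in non-tuft-like and 18.6, 40.4 and 14.97 CPM in tuft-like mTEC. Its means were 5.96 ± 5.23 and 24.7 ± 13.7 CPM (SD, n = 3 each), and the spread within each group was wide (log2 fold change 2.05, SE 0.87, FDR 0.494). Per length it reached 6.05 CPM per kb in tuft-like mTEC. Trpv3, a heat-gated channel of keratinocytes, overlapped at 7.86, 22.9 and 28.3 CPM against 8.51, 5.99 and 0.690 CPM (log2 fold change -1.96, FDR 0.546).

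The 7 Trpm genes considered here gave a median log2 fold change of 0.08. Trpm2, a channel gated by ADP-ribose, was the most abundant per length in non-tuft-like mTEC, at 8.75 CPM per kb against 5.13 in tuft-like mTEC. Its libraries overlapped and were uneven, at 173, 114 and 39.7 CPM against 48.1, 73.6 and 70.1 CPM (log2 fold change -0.77, FDR 0.879). Trpm4, the relative of Trpm5 that also conducts sodium in response to calcium, had means of 50.9 and 65.8 CPM (log2 fold change 0.37, FDR 1). Trpm7, a channel fused to a kinase, had means of 89.2 and 69.0 CPM (log2 fold change -0.37, FDR 1).

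The Trpc genes, receptor-operated cation channels, were the lowest TRP family. None of the 7 reached, in any library, the 99th percentile of olfactory receptor genes on the scale of CPM per kb, and the 6 tested gave a median log2 fold change of 0.09 with every gene overlapping. Trpc4, the most abundant per length, was at 1.21 CPM per kb in non-tuft-like and 1.06 in tuft-like mTEC, with means of 9.74 ± 0.819 and 8.54 ± 1.67 CPM (SD, n = 3 each).

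Mcoln1, the lysosomal calcium channel, was among the most abundant channel genes, at 11.5 and 14.4 CPM per kb. It was at 68.7, 95.1 and 96.6 CPM against 90.5, 105 and 131 CPM, with overlap (log2 fold change 0.33, FDR 1). Mcoln3 was at 12.1, 3.83 and 6.10 CPM against 4.13, 5.90 and 0.580 CPM, also with overlap (log2 fold change -1.06, FDR 1), and Mcoln2 differed by -0.07 on the log2 scale.

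**Figure D3:**
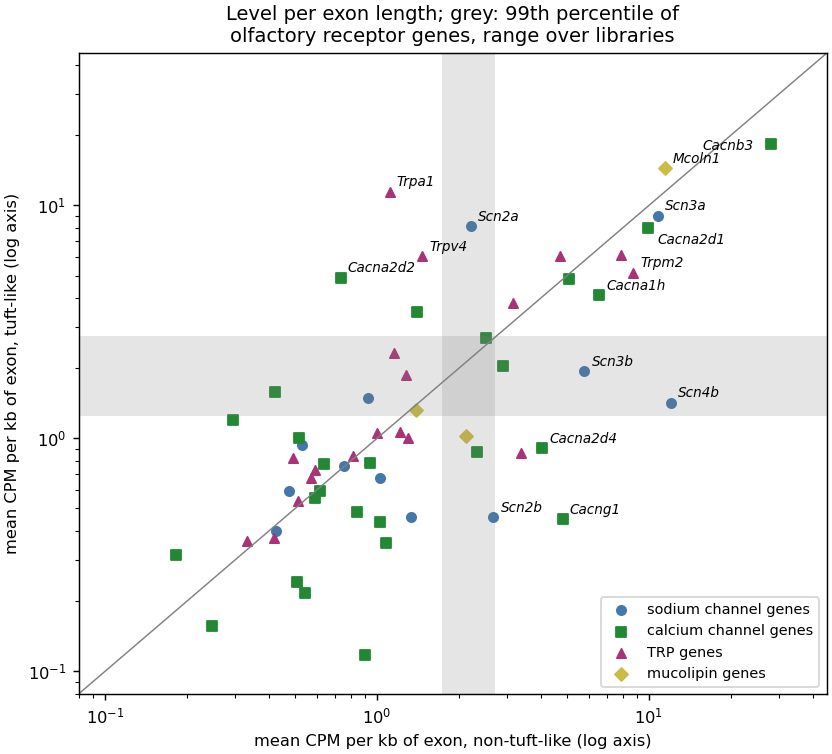
Mean level per kb of exon of channel genes in non-tuft-like (horizontal) and tuft-like (vertical) mTEC, both on log axes, in CPM per kb, with grey bands for the range over libraries of the 99th percentile of olfactory receptor genes and a line of equal levels. Cacnb3 is highest at 28.1 and 18.3 CPM per kb, and Trpa1, at 1.11 and 11.5, is far above the line.

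Many of the levels were low. As a yardstick, the 99th percentile of CPM per kb was taken over 1134 olfactory receptor genes, which are genes of sensory neurons, although mTEC can read some genes of other tissues. It was 1.24 to 2.75 CPM per kb across the 6 libraries. No library exceeded its own percentile for 32 of the 64 channel genes, while 8 genes exceeded it in all 6 libraries. Trpa1 and Cacna2d2 exceeded it in all tuft-like and in no non-tuft-like library, and Scn2a in all tuft-like and in 2 of the 3 non-tuft-like libraries. A level under the yardstick is not shown to be absent.

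The 32 low genes varied with the library and not only with the group. Their mean was 0.567, 0.549 and 0.887 CPM per kb in non-tuft-like and 1.03, 0.569 and 0.171 CPM per kb in tuft-like mTEC. Olfactory receptor genes followed the same order in tuft-like mTEC, at 0.644, 0.369 and 0.0666 CPM per kb, beside 0.189, 0.208 and 0.461 in non-tuft-like mTEC. Tuft-like replicate 3, the lowest on both counts, had at most 3 counts for 19 of the 32 genes, where the other libraries had 1 to 3 such genes. The other 32 channel genes had a mean of 4.08 to 5.32 CPM per kb in non-tuft-like and 3.81 to 4.82 in tuft-like mTEC.

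**Figure D4:**
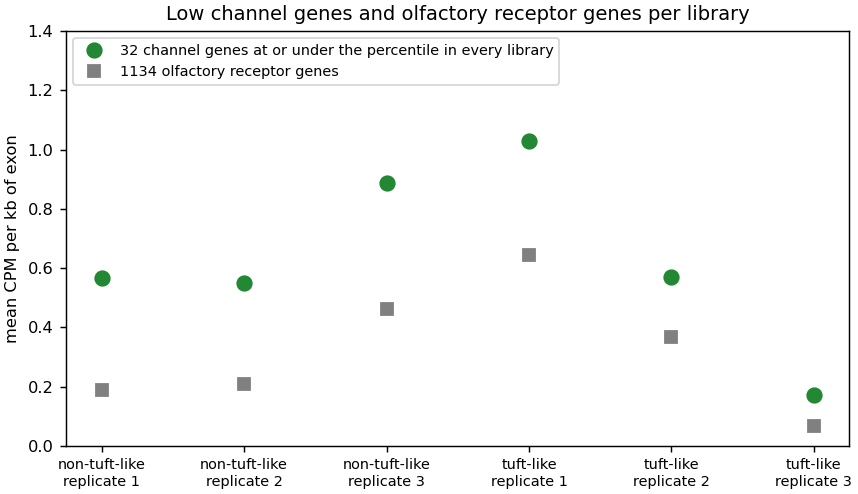
Mean level in CPM per kb of exon of the 32 low channel genes and of 1134 olfactory receptor genes in each library. Tuft-like replicate 3 is lowest for both, at 0.171 and 0.0666 CPM per kb.

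Lists of the genes around these channels were compared in the same fit. Of 11 genes for calcium entry and release from stores 1 was called higher, Itpr2, an IP3 receptor that frees calcium from the endoplasmic reticulum. It was at 163, 189 and 176 CPM in non-tuft-like and 533, 821 and 1082 CPM in tuft-like mTEC, without overlap (log2 fold change 2.21, SE 0.35, FDR 0.00814). The call was lost without non-tuft-like replicate 1 (FDR 0.0561) or 2 (FDR 0.0692). The stromal interaction (Stim) and Orai genes of store-operated entry were not called in this fit. Orai3, with the smallest FDR of these, was at 49.0, 29.9 and 36.6 CPM against 62.3, 88.9 and 114 CPM (log2 fold change 1.20, FDR 0.119). It was called by DESeq2, with library size only, among genes averaging 10 CPM or more and with background counts subtracted, and Stim2 was called without tuft-like replicate 1. Orai2 and Stim1 were lower in tuft-like mTEC without overlap, with log2 fold changes of -0.66 and -0.38, and were not called. Of the 11 store genes 8 had higher and 3 lower fitted levels in tuft-like mTEC.

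None of 14 calcium pump, exchanger and uniporter genes was called by edgeR, with 3 at an unadjusted p under 0.05 (21.4%, beside 8.97% of all genes). Limma voom and DESeq2 each called 1, Atp2a3. Atp2a3, which pumps calcium back into the endoplasmic reticulum, was the most abundant gene of the 4 lists, at 288 CPM per kb in non-tuft-like and 985 in tuft-like mTEC. It was at 1980, 1527 and 1063 CPM against 4013, 5423 and 6167 CPM without overlap (log2 fold change 1.77, SE 0.44, FDR 0.0815). It was called in 11 of 16 alternative fits (FDR from 1.07e-08 to 0.814). Among the fits with 1 library left out it was called without tuft-like replicate 1 (FDR 0.0332) or 3 (FDR 0.0434), and was not called without tuft-like replicate 2 (FDR 0.461) or any of the non-tuft-like replicates (FDR 0.285 to 0.659). None of the 24 tested of 26 other cation channel genes was called by edgeR. An unadjusted p under 0.05 was reached by 3 (12.5%, beside 8.97% of all genes), 2 higher and 1 lower. Limma voom called 0 of them and DESeq2 1, Nalcn. Their most abundant gene per length, Scnn1a, the epithelial sodium channel α subunit, had means of 103 and 63.5 CPM (log2 fold change -0.69, FDR 0.472).

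Among 17 genes for partners of the channels 2 were called lower, Gem and Rrad, small GTPases of the RGK family known to restrain voltage-gated calcium channels. Gem was at 230, 201 and 139 CPM in non-tuft-like and 42.0, 42.1 and 65.8 CPM in tuft-like mTEC (log2 fold change -1.93, SE 0.32, FDR 0.0111). Rrad was at 69.3, 65.8 and 59.1 CPM against 15.2, 13.2 and 20.5 CPM (log2 fold change -1.99, SE 0.32, FDR 0.00934), and 141 of its 1577 exon bases overlap another gene. Neither overlapped between the groups. Gem was not called without tuft-like replicate 2 (FDR 0.0803), and Rrad was not called without non-tuft-like replicate 2 (FDR 0.0555) or tuft-like replicate 2 (FDR 0.0575). Of the partner genes DESeq2 called Gem, Rrad and Stac, all on the lower side, and limma voom called Gem and Rrad. Over the 66 tested genes of the 4 lists, 1 was called higher and 2 lower, or 4.55% beside 2.11% of all genes (1.16% higher and 0.951% lower). The median log2 fold change was 0.07, beside 0.02 over all genes.

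**Figure D5:**
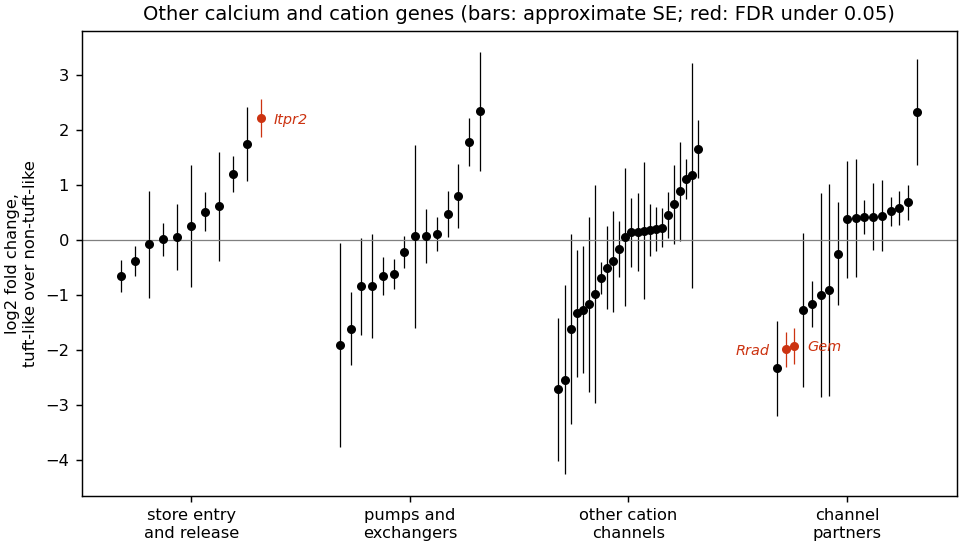
Fitted log2 fold changes of the genes in the 4 lists around the channels, with bars of 1 standard error and called genes named in red. Itpr2 is called at 2.21, and Gem at -1.93 and Rrad at -1.99 are called on the lower side.

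Markers of other cell types that use many of these channels were read in the same libraries. Of 10 neuroendocrine markers, 0 were called by edgeR, 3 by DESeq2 and 2 by limma voom. All 10 had lower fitted levels in tuft-like mTEC, and 6 did not overlap (8.85% of all genes did so on the lower side). An unadjusted p under 0.05 on the lower side was reached by 4 (4.59% of all genes), and no marker was at 0. Their sum was 2701 to 4882 CPM in non-tuft-like and 1436 to 2549 CPM in tuft-like mTEC. Of 8 neuron and glia markers, 1 was called higher, Nefl, with 1108 of its 3380 exon bases shared, and the sum was 71.2 to 90.9 CPM against 125 to 146 CPM. Of the 7 tested, 3 had higher and 4 lower fitted levels in tuft-like mTEC, and the median was -0.37 on the log2 scale. Sox10, a glial factor, had 5, 0 and 0 counts in the tuft-like libraries, and Rbfox3, a neuronal one, 199, 210 and 3. Of 5 endothelial markers, 1 was called higher, Tek, with a sum of 35.7 to 63.7 CPM against 171 to 338 CPM and 1 marker at 0 in tuft-like replicate 3. Of 5 ionocyte markers, 1 was called higher, Foxi1, and 3 had higher and 2 lower fitted levels. Their sum was 24.8 to 59.6 CPM against 85.1 to 103 CPM, without overlap, and 1 marker, Ascl3, was at 0 in tuft-like replicate 3. The part of these cell types in the called genes was not tested.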

How the data were processed

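The 6 libraries, 3 per sorted mTEC population, were made with an ultra-low input kit. Per the labels and the methods, the authors used Trimmomatic 0.36 for trimming and STAR 2.7.3a for alignment to mm10, counted reads per gene with HTSeq, and deposited whole counts. The strand setting and annotation release are not given in the sources used here, so overlapping genes are marked. Reads in the 5 HTSeq summary rows, 27.1% to 66.6% of a library, and 92 ERCC rows (all 0) were left out. No column belonged to another series.

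After filterByExpr at a minimum count of 10 and a minimum total of 15, genes were scaled by TMM and tested with the quasi-likelihood F-test of edgeR 4.0.16 in R 4.3.3, without covariates, adjusted by Benjamini-Hochberg. Each standard error is approximate, the size of the log2 fold change over the root of its F. CPM use TMM-scaled library sizes. Names and exon lengths came from GENCODE M21 and promoters from RefSeq. A count of 0 allows up to 3 counts, 0.0639 to 0.124 CPM, for counting error only. In simulated data with changes set in genes averaging 10 CPM or more, the fit recovered 60% of changes of 2 on the log2 scale. It recovered 97% of changes of 4, and 5.42% of its calls were false.

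The channel genes and lists were chosen with earlier results of these data known. Genes are named if called, if without overlap and averaging 5 CPM or more on the higher side, or if most abundant per kb or, when averaging 1 CPM or more, most changed of their family. In the lists, called genes are named, otherwise the most abundant per kb. A few more were named after their values were seen: Trpv3, Trpm4, Trpm7, Mcoln2, Cacnb1, Cacnb2, the α subunits in ranges, Orai2, Orai3, Stim1, Stim2, Nalcn, Stac and the single marker genes. A few genes picked by this rule are not reported here. Same-numbered libraries correlated at -0.156, -0.061 and -0.326 in their deviations from the group mean. With 3 libraries a group, these values cannot show whether both populations were sorted from the same mice. Numbers were not used as pairs in the main fit. Alternatives used limma 3.58.1 and DESeq2 1.42.0, other scalings and filters, a replicate block, background subtraction and each library left out. An exact permutation test of 3 against 3 cannot go below p = 0.1 and was not used.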

Additional observations from a re-analysis of the deposited data

Results flagged for a closer look

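The share of reads assigned to no gene was 61.6% in tuft-like replicate 1, beside 19.7% to 47.6% in the other tuft-like libraries and 34.4% to 52.5% in the non-tuft-like ones. This row of the table enters no comparison and is listed because it holds reads outside the measured genes. Tuft-like replicate 1 also had the highest level of olfactory receptor genes, 0.644 CPM per kb, and of the low channel genes, 1.03 CPM per kb, while tuft-like replicate 3, with 19.7% of reads in no gene, had the lowest of both. The part of these reads in the low channel gene levels was not tested.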

How the results depend on the processing

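Trpa1, Scn2a and Cacna2d2 were all called in each of the 10 settings that kept every library. Over the 24 channel genes that the naming rule selects, 364 values from a test kept their direction and side of the threshold, 7 passed it, 7 lost it (Cacna2d2 and Scn2a, each with a library left out), and 1 changed sign, Scn3a, at 0.12 without non-tuft-like replicate 1 (-0.58 to 0.12 over the libraries left out). The ratio of mean CPM, with no test, kept the direction of all 24. For channel genes the count of 3 became 6 in DESeq2 (5 higher and 1 lower), 4 with no filter on low counts and 4 at a mean of at least 10 CPM, where 12.3% of all genes were called. Leaving out each library gave 1 to 4. For the list genes the count of 3 became 5 with library size only, 5 at a mean of at least 10 CPM, 7 in DESeq2 and 5 with background counts subtracted, and 1 to 5 with a library left out. Over all genes, 687 became 1045 with library size only (519 higher and 526 lower), 1127 with no filter (550 and 577), 1519 at a mean of at least 10 CPM, 1904 in DESeq2 and 1236 in the likelihood ratio test, and 376 to 922 with a library left out. Without tuft-like replicate 3 the split was 310 higher and 612 lower, against 378 and 309. With the replicate block the counts were 3 channel genes, 3 list genes and 737 of all genes, and Atp2a3 had an FDR of 0.814. The causes of these shifts were not tested. With 3 libraries a group and a biological coefficient of variation of 1.10, small differences in low channel genes are not detectable.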
